A study of Drosophila melanogaster with 8 samples.

Results

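RNA of the larval fat body of wild-type flies was compared between 16 h of starvation and feeding. The comparison rests on 4 of the series' 8 libraries, chosen by their labels: 2 from Oregon R (OreR, wild-type) larvae starved for 16 h and 2 from fed OreR larvae. A pair of OreR libraries after 4 h of starvation serves as a second comparison. The last pair came from 16 h starved larvae of the genotype CPSF5H11/CPSF5H11. It is in neither comparison, but it enters the scaling factors, the filters on genes and isoforms tested, and the shared estimate of the spread. All larvae were raised at 25°C, and the sources used here state neither their age nor their number per sample. Total RNA was depleted of ribosomal RNA and sequenced with strand kept. Nothing in the labels says that the libraries of a group came from separate animals, so the p-values reflect the spread among these samples alone, which may be technical.

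The fat body combines roles of the mammalian liver and fat tissue. It stores fat, glycogen and protein, secretes most proteins of the larval blood, and senses amino acids and sugar through the insulin and TOR pathways. When food stops, insulin and TOR signalling fall, the transcription factor FOXO enters the nucleus, ribosome production is cut, and autophagy delivers cell contents to lysosomes for reuse.

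Values below are scaled TPM, that is the share of transcripts as TPM divided by 1 factor per library, given per library and then as a log2 fold change (log2FC) of log2(scaled TPM + 1) with its SE from limma. "Rose" and "fell" mark genes with a limma adjusted p under 0.05 (Benjamini-Hochberg over all genes tested). The depth is unknown, since TPM hold no read counts, and the precision rests on the spread between libraries.

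Several markers of the larval fat body were abundant in all 4 libraries, matching the tissue label, but others were not. Lsp1alpha and Lsp1beta, the larval serum proteins, had 4525 to 17392 scaled TPM in all 4 libraries, and apolpp, the main blood lipoprotein, had 1379.9 to 1917. Lsp1gamma, another serum protein, was near 0 at 16 h, at 0.0650 and 0.0690 scaled TPM, and had 15.6 and 0.0358 in fed larvae. Fbp1 and Ilp6, given below, were far lower in fed larvae than at 16 h. Apoltp had 22.6 and 15.2 at 16 h against 85.8 and 73.8 in fed larvae, and Mtp had 32.3 and 35.1 against 65.4 and 62.2. Of 11 tested markers of this list 4 rose and 2 fell. Library make-up differed between the 16 h and fed wild-type libraries. Nuclear ribosomal RNA took 48.8% and 31.1% of all TPM at 16 h and 5.19% and 6.79% in fed larvae. The 7SL RNA took 11.8% and 19.03% against 32.5% and 37.1%, and nuclear protein-coding genes took 17.6% and 28.1% against 41.6% and 39.8%. Make-up did not follow starvation in all libraries. In the mutant libraries, also starved for 16 h, ribosomal RNA took 4.58% and 5.41% and the 7SL RNA 34.6% and 30.6%. After 4 h, the share of ribosomal RNA lay between those of the 16 h and fed wild type. The 7SL RNA then took 36.6% and 40.3%. Scaling factors were 0.537 and 0.759 at 16 h, against 1.52 and 1.31 in fed larvae. How far the results depend on the scaling was examined by changing it. That cannot show what part of a gene's change came from library make-up, which was not tested. In RNA from a whole tissue, fewer cells of a type and less RNA per cell cannot be told apart.

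At 16 h, most tested ribosome biogenesis factors and most tested nuclear genes of mitochondrial proteins fell. Most tested genes of autophagy, insulin and FOXO output, the ecdysone response and the salivary gland rose. Of 8332 genes tested, 4110 passed (49.3%): 1801 rose (21.6%) and 2309 fell (27.7%). These shares over all tested genes are the background for every list count below. The groups did not overlap in 79.4% of the genes tested. A change of more than 4-fold was seen in 415 genes that rose and 694 that fell. The median log2FC of all tested genes was 0.01. Because TPM are shares, the split depends on the scaling: with no scaling, under which the median log2FC of all genes was -0.80, 523 genes rose and 4027 fell, and with rescaling over coding genes, under which it was -0.18, 1217 rose and 2522 fell. With 2 libraries against 2, no single gene can reach a two-sided exact permutation p under 0.333, so calls rest on the spread that limma pools over genes and groups.

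**Figure D1:**
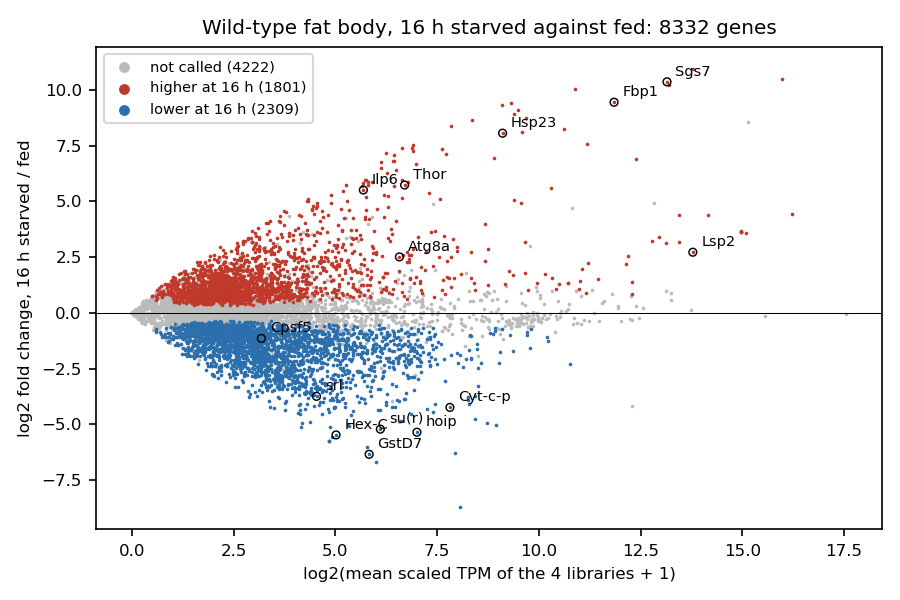
Log2 fold change of 16 h starved over fed wild type (y axis) against the log2 of the mean scaled TPM plus 1 of the 4 libraries (x axis), 1 point per gene tested. Red points are the 1801 genes that rose, blue points the 2309 that fell and grey points those not called. Salivary glue and storage genes such as Sgs7 and Fbp1 lie highest among the genes labelled, and GstD7 and Hex-C lie lowest.

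Some genes known to answer to low insulin or low TOR were among the clearest rises, but signalling itself was not measured. Thor, the FOXO target that encodes the translational brake 4E-BP (2L, 3478434 to 3479612, BDGP6), had 176 and 230.2 scaled TPM at 16 h, against 3.18 and 2.46 in fed larvae. Its log2FC was 5.73 (SE 0.48, limma adjusted p = 0.00029). Ilp6, an insulin-like peptide made by the fat body when larvae do not feed, had 104 and 95.6 scaled TPM at 16 h and 1.66 and 0.832 in fed larvae (log2FC 5.51, SE 0.39, limma adjusted p = 0.00017). Both genes were near 1 to 3 scaled TPM in every fed library and above 95 in every 16 h library. Among 19 tested genes of insulin signalling and FOXO output, 11 rose, including foxo, InR and Akt, and 4 fell, with a median log2FC of 0.91; with no scaling 3 rose and 6 fell, with a median of -0.03. The largest fall was that of srl (spargel), the fly PGC-1 and a promoter of mitochondrial genes, with 2.27 and 2.16 scaled TPM at 16 h and 41.2 and 43.0 in fed larvae (log2FC -3.74, SE 0.20, limma adjusted p = 7.45e-05). The number that fell was 1 when any of the 4 libraries was left out.

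Most members of the TOR list were not called, and those called moved in both directions. REPTOR and REPTOR-BP, the pair of transcription factors that act when TOR complex 1 is inhibited, both rose. REPTOR-BP had 44.3 and 46.9 scaled TPM at 16 h against 1.53 and 1.91 in fed larvae (log2FC 4.10, SE 0.16, limma adjusted p = 6.0e-05), and REPTOR had 10.002 and 11.2 against 1.61 and 1.003 (log2FC 2.34, SE 0.18). In all, 4 of 21 tested TOR and amino acid sensing genes rose, 3 fell and 14 were not called, with a median log2FC of -0.05 (2 rose and 12 fell with no scaling). Over all tested genes 21.6% rose and 27.7% fell. On a list around the Myc network, which also holds sug (sugarbabe, a zinc finger transcription factor), 2 of 8 rose and 4 fell. The factor sug had 34.1 and 27.8 scaled TPM at 16 h and 2.52 and 1.09 in fed larvae (log2FC 3.55, SE 0.26, limma adjusted p = 0.00019). Mnt, an antagonist of Myc, had 5.77 and 7.09 against 1.54 and 1.31 (log2FC 1.61, SE 0.16). With no scaling Mnt had a log2FC of 0.77 and did not pass (limma adjusted p = 0.069). Myc, Mondo, pont and rept fell.

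Most autophagy genes tested rose. Of 36 tested members 21 rose and 2 fell (Atg16 and car), with a median log2FC of 0.83; the number that fell was 0 without 16 h replicate 1 or fed replicate 2 and 1 without 16 h replicate 2 or fed replicate 1. Atg1, the kinase that starts autophagy (3L, 12784429 to 12805116), had 5.18 and 7.57 scaled TPM at 16 h and 2.03 and 2.02 in fed larvae. Its log2FC was 1.26 (SE 0.23, limma adjusted p = 0.0054). Atg8a, the ubiquitin-like protein that coats autophagosomes (X, 10764878 to 10768338), had 151 and 171 against 27.4 and 27.4 scaled TPM (log2FC 2.51, SE 0.23, limma adjusted p = 0.00039). The largest rises of the list were those of Atg18b, a lipid-binding scaffold, with 13.9 and 14.2 against 0.483 and 0.254 scaled TPM, and of Atg7, the enzyme that activates Atg8a, with 17.6 and 12.1 against 0.548 and 0.552 scaled TPM. ref(2)P, the cargo receptor related to p62, had 45.6 and 71.6 scaled TPM at 16 h and 10.5 and 9.16 in fed larvae (log2FC 2.43, SE 0.47). In all of these genes the 16 h libraries lay above the fed ones. With no scaling, 5 members rose, 4 fell and the median was -0.05, and Atg1 no longer passed (log2FC 0.39, limma adjusted p = 0.31).

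Lysosomal genes showed rises and no falls. Of 21 tested hydrolases and lysosomal membrane proteins 12 rose and 0 fell, with a median log2FC of 0.89; 7 rose without fed replicate 2, and with no scaling 4 rose and 3 fell. Cathepsin D (cathD) was the most abundant of those named, with 780.2 and 726 scaled TPM at 16 h and 88.1 and 119 in fed larvae (log2FC 2.87, SE 0.35, limma adjusted p = 0.0010). Cathepsin B (CtsB) had 39.0 and 39.6 against 7.23 and 7.48, the mannosidase LManI had 15.6 and 10.4 against 1.47 and 1.74, and the sterol exporter Npc1a had 14.2 and 13.0 against 2.36 and 2.06 scaled TPM. Subunits of the vacuolar proton pump, which acidifies the lysosome, showed no shared direction: 2 of 19 rose and 1 fell, with a median log2FC of -0.01 (13 fell with no scaling). Without 1 of the 4 libraries 0 fell and 1 or 2 rose.

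**Figure D2:**
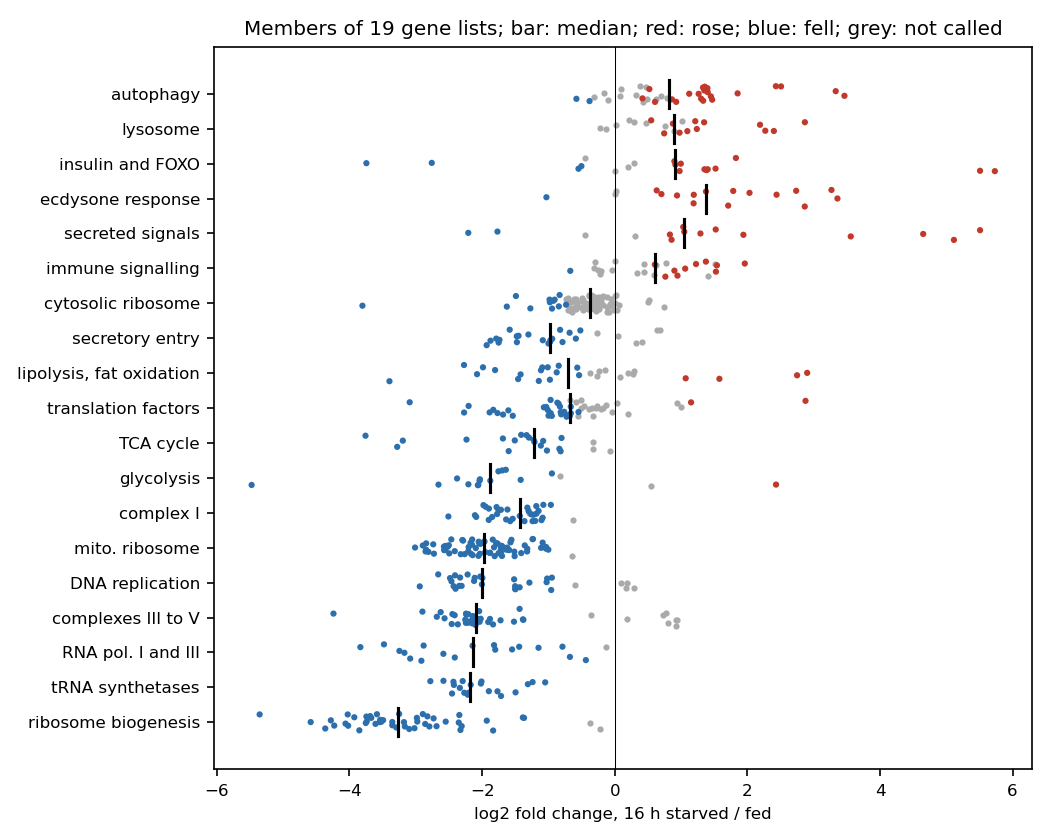
Log2 fold change of 16 h starved over fed (x axis) for each tested member of 19 gene lists (rows), with black bars at the list medians. Red points rose, blue points fell and grey points did not pass; autophagy, insulin and FOXO, secreted signals and immune signalling have medians above 0 (with no scaling -0.05, -0.03, -0.07 and -0.35), and ribosome biogenesis lies farthest left, with a median of -3.27.

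Transcripts of ribosome biogenesis factors were lower almost throughout. Of 48 tested ribosome biogenesis factors 46 fell and 0 rose, at a median log2FC of -3.27. hoip, the RNA-binding protein of box C/D small nucleolar particles and of the spliceosome (2L, 9699791 to 9700459), had 5.62 and 4.64 scaled TPM at 16 h and 259 and 239 in fed larvae (log2FC -5.35, SE 0.20, limma adjusted p = 6.0e-05). Fib (fibrillarin), which methylates ribosomal RNA, had 2.89 and 1.84 against 74.2 and 83.6 scaled TPM. Its partner nop5 had 5.20 and 5.44 against 127 and 131, and CG6724 had 2.28 and 1.86 against 53.3 and 64.3 scaled TPM. Each of these 16 h values lay more than 10-fold below either fed value. At least 41 members fell under every alternative setting and left-out library.

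RNA polymerases I and III, which transcribe ribosomal RNA, the 5S RNA and tRNAs, were lower as well: 18 of 19 tested subunits and factors fell (10 of the 11 tested at a mean scaled TPM of 5 or more), with a median log2FC of -2.14. Polr1A, the largest subunit of polymerase I, had 1.62 and 1.59 scaled TPM at 16 h, against 36.0 and 36.4 in fed larvae (log2FC -3.84, SE 0.14, limma adjusted p = 6.0e-05). The second largest, Polr1B, had 0.874 and 0.812 against 18.8 and 20.4. Beside these falls, the share of ribosomal RNA in the wild-type libraries was higher at 16 h, as given above. The RNA had been depleted of ribosomal RNA, so that share is what depletion left. It does not measure the level of ribosomal RNA in the tissue.

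Cytosolic ribosomal proteins moved far less than the factors that assemble them. Of 88 tested genes of the list 12 fell and 0 rose, at a median log2FC of -0.37. The 3 largest falls were of RpLP0-like, RpL24-like and RpL7-like, whose yeast relatives act in ribosome assembly; RpLP0-like had 5.75 and 5.43 scaled TPM at 16 h and 89.5 and 92.6 in fed larvae (log2FC -3.80, SE 0.14). Among the genes of mature ribosomal proteins, RpLP2 had 698 and 708 against 1632 and 1768 scaled TPM (log2FC -1.27, SE 0.25, limma adjusted p = 0.0067). The count is unstable: 85 fell with no scaling, 56 with rescaling over coding genes, 42 with quantile normalization and 22 in the 4 libraries alone, and 4 to 6 fell when 1 of the 4 libraries was left out.

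Enzymes that charge tRNAs fell without exception: all 20 tested aminoacyl-tRNA synthetases fell, with a median log2FC of -2.19, and at least 19 did so in every alternative run. HisRS had 6.52 and 8.44 scaled TPM at 16 h and 49.9 and 64.8 in fed larvae (log2FC -2.78, SE 0.23, limma adjusted p = 0.00029), and LeuRS had 2.93 and 4.75 against 27.8 and 27.2. Translation factors were mixed, with 28 of 49 lower, 2 higher and a median log2FC of -0.68. eIF6, which holds new large subunits apart from small ones, had 6.82 and 7.28 scaled TPM at 16 h and 68.1 and 67.1 in fed larvae (log2FC -3.09, SE 0.16, limma adjusted p = 7.1e-05). Going the other way, Paip2, an inhibitor of the poly(A)-binding protein, had 34.1 and 34.1 against 4.32 and 3.29 (log2FC 2.88, SE 0.18). The number of translation factors that fell was 44 with no scaling and 14 to 16 when 1 of the 4 libraries was left out.

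Most tested nuclear genes of mitochondrial proteins fell. Of 73 tested mitochondrial ribosomal proteins 71 fell (median log2FC -1.97), of 33 complex I subunits 31 fell (median -1.43), and of 41 genes of complexes III to V and cytochrome c 33 fell (median -2.10); no member rose. Over the alternatives these counts ran from 64 to 73, from 29 to 33 and from 32 to 33. Of the 65 mitochondrial ribosomal proteins tested at a mean scaled TPM of 5 or more, 64 fell. Cyt-c-p, the cytochrome c of most tissues (2L, 16719932 to 16722644), had 17.9 and 25.9 scaled TPM at 16 h and 454 and 398 in fed larvae (log2FC -4.24, SE 0.23, limma adjusted p = 7.45e-05). Cyt-c1 of complex III had 11.3 and 10.3 against 96.7 and 78.2, ND-ACP of complex I had 25.5 and 24.3 against 162 and 132, and mRpS30 of the mitochondrial ribosome had 3.45 and 2.05 against 29.4 and 28.0 scaled TPM. The chaperones that fold imported proteins fell as well: Hsp60A had 12.03 and 15.8 scaled TPM at 16 h and 257 and 323 in fed larvae (log2FC -4.29, SE 0.28, limma adjusted p = 0.00013), and the mitochondrial Hsp70, Hsc70-5, had 12.6 and 18.8 against 142 and 159.

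The 13 protein-coding genes of the mitochondrial genome itself did not pass the test. Their median log2FC was -0.48, and 0 were called by limma, with 3 lower and 0 higher under no scaling and 2 lower without fed replicate 2. The fed libraries differed widely here: mt:CoI had 3459.8 and 3457.5 scaled TPM at 16 h, and 6617.9 and 2944.5 in fed larvae. For that gene the 16 h values lay between the fed ones. In mt:ND3 and mt:ND4 both 16 h values lay below both fed values; mt:ND3 had 126 and 91.9 scaled TPM at 16 h and 1062 and 164 in fed larvae (log2FC -1.95, limma adjusted p = 0.13).

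Enzymes of central carbon metabolism were also mostly lower. In glycolysis and the pyruvate dehydrogenase complex 14 of 17 tested genes fell and 1 rose (median log2FC -1.88). Hex-C, a hexokinase of the fat body, had 0.525 and 0.324 scaled TPM at 16 h and 62.1 and 62.2 in fed larvae (log2FC -5.48, SE 0.41, limma adjusted p = 0.00020). The gene that rose was Pdk, the kinase that switches pyruvate dehydrogenase off, with 19.4 and 40.9 against 4.48 and 4.35 scaled TPM (log2FC 2.43, SE 0.37, limma adjusted p = 0.0026), while Pdha and Pdhb, subunits of the enzyme it inhibits, fell (log2FC -2.66 and -2.38). In the citric acid cycle and the enzymes around it 18 of 21 fell and 0 rose (median log2FC -1.22). Idh, the NADP-dependent isocitrate dehydrogenase, had 41.0 and 40.6 against 624 and 511 scaled TPM, and kdn, the citrate synthase, had 3.75 and 1.93 against 38.8 and 28.3.

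Genes of sugar handling moved in both directions. Tret1-1, a trehalose transporter through which the fat body releases sugar to the blood, had 152 and 138 scaled TPM at 16 h and 17.7 and 12.3 in fed larvae (log2FC 3.21, SE 0.32, limma adjusted p = 0.00054). Pepck2, a phosphoenolpyruvate carboxykinase, had 87.9 and 110.4 against 18.8 and 18.1 (log2FC 2.35, SE 0.42, limma adjusted p = 0.0050). Enzymes of trehalose and glycogen metabolism mostly fell: Tps1, the trehalose synthase, had 35.3 and 38.7 against 126 and 116 scaled TPM (log2FC -1.68, SE 0.20). Of 15 tested genes of this list 3 rose and 8 fell (5 without 16 h replicate 1 or fed replicate 1, 4 without fed replicate 2).

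Genes of fat breakdown moved in both directions. bmm (brummer), the main triglyceride lipase, had 17.04 and 14.04 scaled TPM at 16 h and 1.75 and 0.768 in fed larvae (log2FC 2.90, SE 0.48, limma adjusted p = 0.0036). whd (withered), the carnitine palmitoyltransferase that admits fatty acids to mitochondria, had 54.5 and 59.0 against 11.3 and 4.99 (log2FC 2.75, SE 0.38, limma adjusted p = 0.0017). Lsd-1 and Acox3 also rose. Falls included CG3902, an acyl-CoA dehydrogenase by annotation, with 10.7 and 10.3 against 115 and 125 scaled TPM (log2FC -3.40, SE 0.19, limma adjusted p = 8.0e-05). In all, 4 of 28 tested genes rose and 16 fell, with a median log2FC of -0.71; 2 rose when any 1 of the 4 libraries was left out or with no scaling, and 10 fell without 16 h replicate 2. Of 19 tested genes of fatty acid and triglyceride synthesis 1 rose (0 without fed replicate 2) and 4 fell (median 0.00), the fatty acid elongase Baldspot most, with 3.66 and 4.65 against 60.1 and 44.5 scaled TPM.

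Amino acid and nucleotide enzymes changed in both directions. Gs1, a glutamine synthetase, had 508 and 379 scaled TPM at 16 h and 51.9 and 78.7 in fed larvae (log2FC 2.76, SE 0.37, limma adjusted p = 0.0016), while Gdh, the glutamate dehydrogenase, had 20.6 and 40.3 against 230.5 and 231 (log2FC -2.96, SE 0.40, limma adjusted p = 0.0017). Of 21 tested genes of amino acid breakdown 3 rose and 9 fell (14 with no scaling). Among 19 genes of purine and pyrimidine synthesis 3 rose and 9 fell (14 with no scaling). Prat2, an enzyme of the first committed step of purine synthesis, had 95.1 and 121 against 11.8 and 22.7 scaled TPM (log2FC 2.64, SE 0.52), and the CTP synthase Ctps had 1.84 and 2.18 against 34.7 and 35.4 (log2FC -3.58, SE 0.19). su(r), which starts pyrimidine breakdown (X, 9196808 to 9201820), was among the 12 largest falls of all nuclear coding genes, with 2.58 and 2.61 against 123 and 143 scaled TPM (log2FC -5.22, SE 0.14, limma adjusted p = 6.0e-05).

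Genes of protein storage and of the ecdysone response gave several large rises. Fbp1, the fat body receptor for larval serum proteins (3L, 14094589 to 14098053), had 9098 and 5641 scaled TPM at 16 h and 6.56 and 13.0 in fed larvae (log2FC 9.44, SE 0.57, limma adjusted p = 9.8e-05). The storage protein Lsp2 had 23728 and 24705 against 2373 and 5703 (log2FC 2.72, SE 0.49, limma adjusted p = 0.0053; not past the test with quantile normalization, adjusted p = 0.31). Of 6 storage genes 3 rose and 0 fell, but 1 rose and 2 fell with quantile normalization, and 1 fell without fed replicate 2. Among 17 tested genes of the ecdysone response, the steroid pathway that drives molting and metamorphosis, 14 rose and 1 fell (Cth), with a median log2FC of 1.38. EcR, the hormone's receptor, had 17.7 and 30.3 against 2.54 and 2.73 scaled TPM (log2FC 2.74, SE 0.26, limma adjusted p = 0.00046), and br (broad) had 18.8 and 17.2 against 0.915 and 1.02 (log2FC 3.27, SE 0.18). The response genes Eip74EF, with 12.1 and 13.7 against 0.899 and 0.915, and E23, with 13.4 and 11.1 against 0.299 and 0.269 scaled TPM, rose too. The count that rose was 8 with no scaling, 8 without fed replicate 1, 9 without fed replicate 2 and 8 of the 9 tested at a mean of 5 or above.

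**Figure D3:**
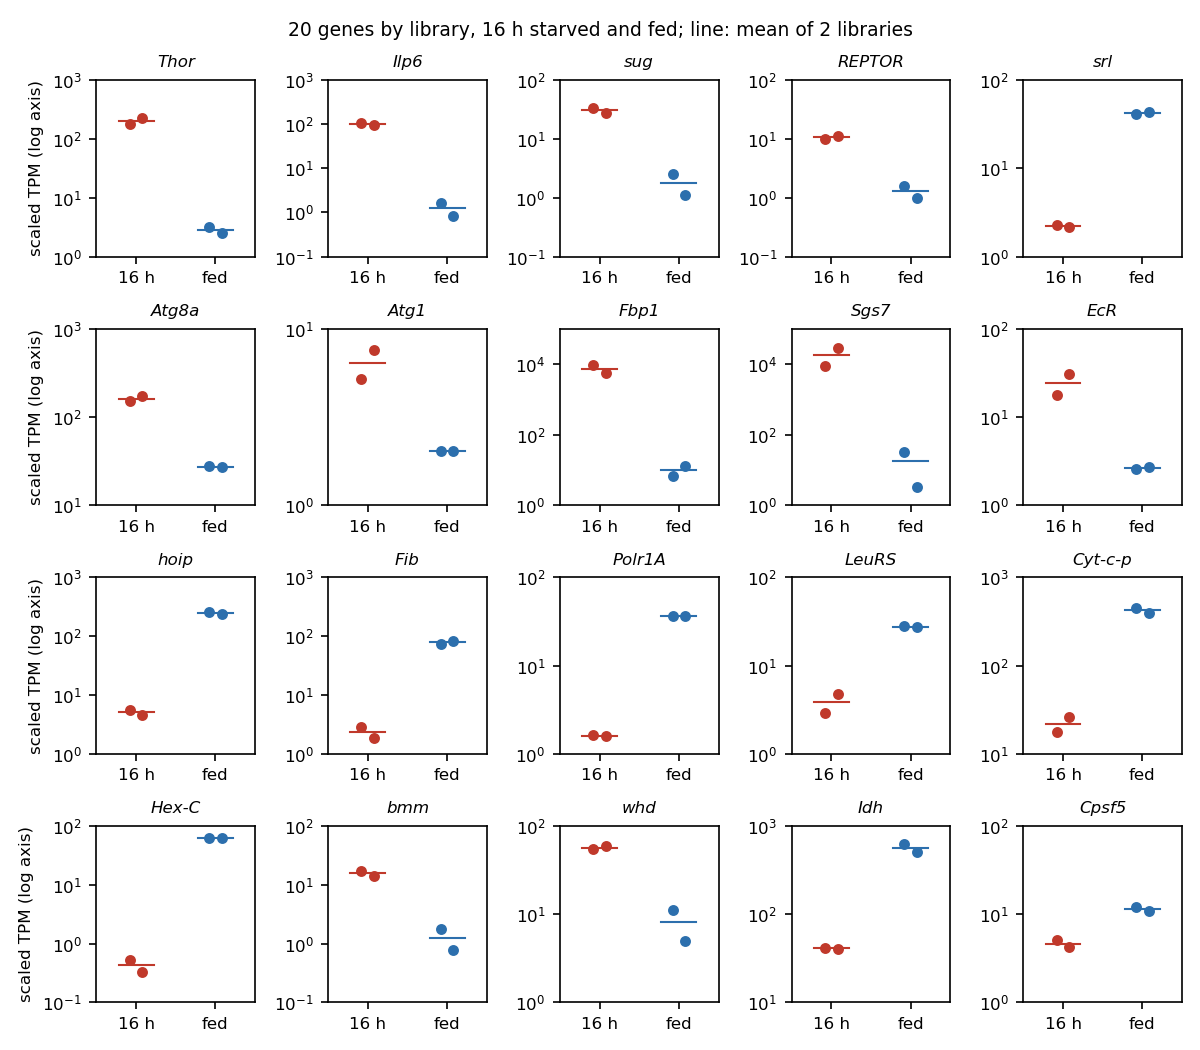
Scaled TPM on a log axis (y) of 20 genes in the 2 libraries of 16 h starved (red, left) and the 2 of fed larvae (blue, right), with lines at the means. In each panel the groups do not overlap; the fed values of sug, bmm, whd and Sgs7 differ between libraries by more than those of Polr1A or Hex-C.

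Salivary glue genes gave the largest rises of all, in RNA labelled as fat body, led by Sgs7 (3L, 11509861 to 11510247). It had 8523 and 27808 scaled TPM at 16 h and 31.8 and 3.19 in fed larvae (log2FC 10.36, SE 0.996, limma adjusted p = 0.00046). Of the 12 largest rises among nuclear coding genes, 7 were salivary gland markers (Sgs3, Sgs4, Sgs5, Sgs5bis, Sgs7, Sgs8 and Eig71Ee); the other 5 were Fbp1, Hsp23, CG15404, CG31698 and CG7606. In all, 9 of 12 tested salivary markers rose and 0 fell, and their sum was 15096 and 41599 scaled TPM at 16 h, against 1006.1 and 3220.4 in fed larvae. The early glue genes ng1 and ng3 did not separate the groups: ng1 had 489 and 596 at 16 h and 339 and 1218 in fed larvae, and ng4 was at or near 0 in all 4 libraries. The part of salivary gland tissue in other changes was not tested.

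Some markers of other tissues moved as well. The summed level of 11 tested midgut markers was 1.048 and 6.46 scaled TPM at 16 h, against 131 and 220.0 in fed larvae. Of these 4 fell, among them deltaTry with 0.118 and 1.25 against 44.8 and 66.9, and the median log2FC was -0.24. Most of the list was low in fed larvae too: 11 of 15 listed midgut markers were under 1 scaled TPM in both fed libraries. Amy-d, for example, had 0.0122 and 0.0434 in fed larvae. It had 5.45 and 16.5 in the libraries of the mutant genotype, which enter the filter. LysE and lambdaTry were listed at 0 in all 4 libraries. Of 12 tested muscle markers 9 fell and 1 rose (Mef2), with sums of 57.0 and 78.6 scaled TPM at 16 h and 223 and 156 in fed larvae; the number that fell was 2 without 16 h replicate 1, 5 without 16 h replicate 2, 1 without fed replicate 1 and 5 without fed replicate 2. Of 9 tested hemocyte markers 2 rose and 2 fell. The rises were of srp, with 14.8 and 15.5 scaled TPM at 16 h and 6.70 and 6.05 in fed larvae, and of crq, with 10.8 and 10.1 against 6.29 and 6.19; the number of markers that rose was 1 without any 1 of the 4 libraries and 0 with no scaling. The blood cell genes Hml and He were at 0.891 to 3.85 scaled TPM in all 4 libraries. The collagen IV genes Col4a1 and vkg, which the fat body also makes, fell: vkg had 14.4 and 10.7 scaled TPM at 16 h and 209 and 181 in fed larvae (log2FC -3.86, SE 0.47, limma adjusted p = 0.0011). All 3 tested tracheal markers fell (0 without 16 h replicate 1 or fed replicate 1), with sums of 1.21 and 2.04 scaled TPM at 16 h and 10.9 and 5.99 in fed larvae. Of 2 tested neuronal markers Syt1 rose, with 29.1 and 26.7 against 9.52 and 12.02 scaled TPM. The call was lost without fed replicate 1 and with no scaling. The other, elav, was not called and was lower at 16 h, at 0.378 and 0.391 against 0.546 and 0.553. Of 7 listed neuronal markers 6 were under 1 scaled TPM in both 16 h libraries, and 6 in both fed libraries. The part of these tissues in the changes of other genes was not tested.

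Genes on a hand-written list of signals to other organs were mostly higher at 16 h. Of 15 tested 11 rose and 2 fell, with a median log2FC of 1.049 (4 rose with no scaling and 7 with rescaling over coding genes). Fewer rose when any 1 of the 4 libraries was left out. Which tissue in the samples made these transcripts was not tested. Lst (limostatin), a hormone that lowers insulin secretion, had 358 and 373 scaled TPM at 16 h, against 14.04 and 6.45 in fed larvae (log2FC 5.11, SE 0.41, limma adjusted p = 0.00025). Gbp1, a growth-blocking peptide, had 152 and 97.5 against 4.23 and 3.56 (log2FC 4.65, SE 0.33, limma adjusted p = 0.00017). Ilp6, given above, belongs to this list too.

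Immune genes did not share a direction. Drs (drosomycin), an antifungal peptide and a target of Toll, had 467 and 311 scaled TPM at 16 h and 0.824 and 2.09 in fed larvae (log2FC 7.33, SE 0.74, limma adjusted p = 0.00056). Against that, the cecropin CecA1 had 0.9996 and 1.37 against 11.99 and 6.47 (log2FC -2.18, SE 0.28, limma adjusted p = 0.0013), and of 14 tested antimicrobial peptides 1 rose and 3 fell (1 without either fed replicate, 6 with no scaling). BomS3, of the bomanin family that acts in Toll immunity, had 107 and 99.7 against 0.436 and 0.905 scaled TPM (log2FC 5.98, SE 0.91, limma adjusted p = 0.0026); 4 of 11 bomanins rose and 1 fell. The number that rose was 1 or 2 without 1 of the 4 libraries and 8 in the 4 libraries alone. Of 26 tested Toll and Imd pathway genes 10 rose and 1 fell, with a median log2FC of 0.61. The receptor Tl had 14.1 and 20.2 against 3.96 and 3.27 scaled TPM (log2FC 1.96, SE 0.22). That count was 1 with no scaling, when 7 fell, and 5 or 6 without fed replicate 1 or 2; 0 fell without any 1 of the 4 libraries.

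Some small heat shock genes rose, and most tested genes at the entry to the secretory pathway fell. Hsp23 had 1458 and 739.9 scaled TPM at 16 h and 1.91 and 4.24 in fed larvae (log2FC 8.06, SE 0.88, limma adjusted p = 0.00073), and Hsp27 had 107 and 177 against 2.94 and 2.24. With Hsp26 they made up the 3 of 9 small heat shock genes that rose (6 without 16 h replicate 1). The call of Hsp26 was lost without 16 h replicate 2 (adjusted p = 0.073) and without fed replicate 2 (0.091). At the entry to the secretory pathway, where the signal recognition particle and the Sec61 channel pass new proteins into the endoplasmic reticulum, 20 of 26 tested genes fell and 0 rose (median log2FC -0.97). Sec61alpha had 56.9 and 70.7 against 202 and 231 scaled TPM (log2FC -1.75, SE 0.20, limma adjusted p = 0.00086), and Srp9 had 13.6 and 17.2 against 58.4 and 58.9. The count was 10 without 16 h replicate 1 or fed replicate 2. Among 33 tested proteasome subunits 3 fell and 0 rose (median log2FC -0.38; 33 fell with no scaling, 15 with rescaling over coding genes, 13 in the 4 libraries alone, and 0 without 1 of the 4 libraries).

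Most DNA replication genes were lower: 26 of 31 tested fell and 0 rose, at a median log2FC of -1.996 (6 of the 8 tested at a mean scaled TPM of 5 or more). PCNA, the sliding clamp of DNA polymerase, had 2.99 and 2.52 scaled TPM at 16 h and 22.9 and 33.6 in fed larvae (log2FC -2.94, SE 0.26, limma adjusted p = 0.00034). Mcm3 of the replicative helicase had 0.717 and 0.437 against 7.74 and 10.3.

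Detoxification genes held the single largest fall among nuclear coding genes. GstD7, a glutathione transferase, had 0.409 and 0.183 scaled TPM at 16 h and 151 and 71.0 in fed larvae (log2FC -6.34, SE 0.42, limma adjusted p = 0.00013). Of 29 tested glutathione transferases 10 fell and 2 rose (17 fell and 0 rose with no scaling, 6 rose with quantile normalization, and falls numbered 5 without fed replicate 1 and 6 without fed replicate 2). The other genes with the largest falls included Nplp4, a neuropeptide-like gene (7.78 and 2.45 against 714 and 255 scaled TPM), the cuticle gene Cpr47Ec (0.157 and 0.0471 against 84.1 and 32.0), CG11370 (0.758 and 0.165 against 162 and 51.2) and Acbp4, an acyl-CoA-binding protein, which was listed at 0 in both 16 h libraries and had 36.0 and 31.4 in fed larvae. The rule also named 3 histone H2B copies with identical values, listed at 0 at 16 h and at 72.5 and 37.9 scaled TPM in fed larvae; reads of such near-identical copies cannot be assigned to 1 of them, so these values are uncertain.

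Of the cleavage and polyadenylation factors, the group to which the mutated gene of the series belongs, some fell and few rose. Cpsf5, the small subunit of cleavage factor I, had 5.06 and 4.201 scaled TPM at 16 h and 11.98 and 10.9 in fed larvae (log2FC -1.15, SE 0.24, limma adjusted p = 0.0093); the call was lost without 16 h replicate 2 (adjusted p = 0.050) and without fed replicate 1 (adjusted p = 0.057). Cpsf6, its partner, had 3.92 and 3.07 against 14.8 and 14.9 (log2FC -1.83, SE 0.14, limma adjusted p = 0.00024). Of 20 tested factors 11 fell and 2 rose (Pcf11 and hrg), with a median log2FC of -0.51; 7 fell without 16 h replicate 2, 6 without fed replicate 1 and 3 of the 7 tested at a mean of 5 or above. The number that rose was 1 without 16 h replicate 2 and 0 without any other of the 4 libraries, with no scaling or with rescaling over coding genes. Among 15 SR splicing factors and their kinases 7 fell (4 without fed replicate 1) and 1 rose (0 without any 1 of the 4 libraries). B52 fell most, with 15.7 and 16.2 against 90.8 and 99.98 scaled TPM (log2FC -2.50, SE 0.17).

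Isoform use also differed. The share of a gene's TPM was tested for 5289 isoforms of 1995 genes, and 1028 passed (19.4%): 577 had a higher share at 16 h (10.9%) and 451 a lower one (8.53%), in 581 genes. Shares are the authors' estimates from short reads. The largest shifts named by rule ran from a full exchange of 1 isoform for another to changes of start site or of 3' end.

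Isoforms from different start sites exchanged places in the alcohol dehydrogenase gene. Adh, chosen after its values were seen, has a distal promoter, at 14615552 on 2L, and a proximal one, at 14616267, which are known to serve different stages of life. The distal isoform Adh-RC held 68.3% and 88.6% of Adh TPM at 16 h, against 2.56% and 2.62% in fed larvae (log2 ratio change 7.21, SE 0.95, limma adjusted p = 0.0056). Its proximal counterpart Adh-RE held 28.7% and 7.38% against 95.9% and 96.3%; that call was lost without 16 h replicate 2 (adjusted p = 0.058) and without either fed replicate (0.056 and 0.060). In unscaled TPM, Adh-RE fell to 73.1 and 22.2 at 16 h, against 2242 and 1419 in fed larvae. The gene as a whole had 475 and 396 scaled TPM at 16 h and 1541 and 1120.1 in fed larvae (log2FC -1.60, SE 0.39, limma adjusted p = 0.017; not past the test without 16 h replicate 2, 0.076, or fed replicate 1, 0.097). The downstream gene Adhr, whose transcripts run through Adh from the same start sites, cannot be told apart from it there: Adhr-RA has the coordinates and the TPM of Adh-RF, at 1.96 and 2.11 unscaled TPM at 16 h and 0 in both fed libraries, and its change is no separate observation.

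CG11089 changed start too. Its isoform RB, from the downstream start, held 96.1% and 95.5% of the gene's TPM at 16 h, against 5.33% and 7.04% in fed larvae (log2 ratio change 8.003, SE 0.34, limma adjusted p = 0.00091). The gene's unscaled TPM were 244 and 311 at 16 h and 64.0 and 56.1 in fed larvae.

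Other isoforms differed in their 3' UTR, and shifted in both directions. CG1943 used the isoform RA, with a 3' UTR of 516 nt, for 89.3% and 91.4% of its TPM at 16 h and 0% in both fed libraries, which held 100% of the longer RD (706 nt; limma adjusted p for RA 0.0012). In EMC2A, a subunit of the membrane protein insertion complex, the longer RA (269 nt) held 100% at 16 h against 0.542% and 0% in fed larvae, and the shorter RB (128 nt) took the rest (limma adjusted p for RA 0.0030). mRpL48-RA made up 100% at 16 h and 12.9% and 8.20% in fed larvae, but at 0.738 and 0.841 unscaled TPM; its call was lost when any 1 of the 4 libraries was left out (adjusted p 0.121 to 0.148). Cpsf5 itself shifted: its isoform RB, with a 3' UTR of 1375 nt, held 46.2% and 54.4% at 16 h and 7.48% and 8.91% in fed larvae (log2 ratio change 2.79, SE 0.23, limma adjusted p = 0.0017). In unscaled TPM the RB isoform was 1.26 and 1.73 at 16 h and 1.36 and 1.28 in fed larvae, while RC, with 423 nt, was 1.46 and 1.46 against 16.8 and 13.1.

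**Figure D4:**
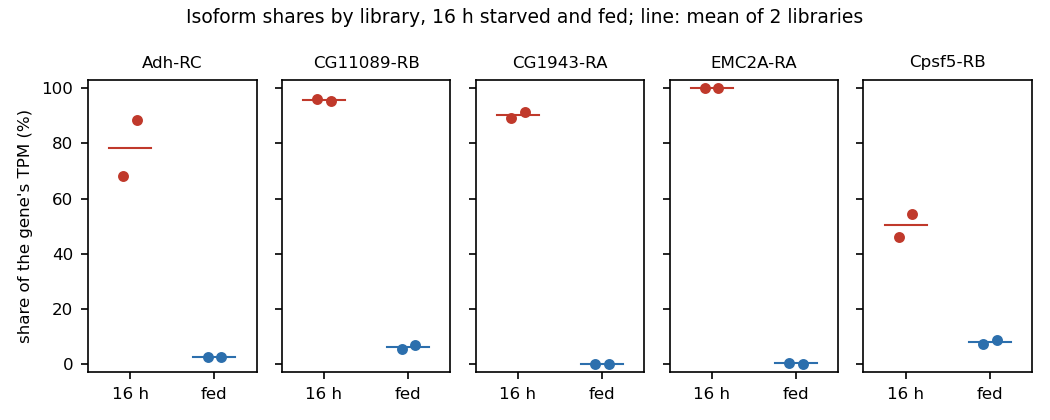
Share of the gene's TPM (y axis, %) held by 5 isoforms in the 2 libraries of 16 h starved (red, left) and the 2 of fed larvae (blue, right), with lines at the means. Each isoform holds a higher share at 16 h and the groups do not overlap; Adh-RC spreads most at 16 h, from 68.3% to 88.6%.

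Starvation for 16 h was also set against 4 h, to see which changes differed between the times. Few did: of 8332 genes 0 were higher (0.0%) and 3 were lower (0.036%) at 16 h by limma, although 1337 had an unadjusted p under 0.05. The number called was unstable, between 0 and 15 higher and 0 and 9 lower when 1 of these 4 libraries was left out. The libraries also crossed the groups: 16 h replicate 2 had a Spearman correlation across genes of 0.908 with 4 h replicate 2, and of 0.886 with 16 h replicate 1. A p that misses the threshold does not show that the times were alike.

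The 3 genes called were CG13135, Prip and bdg. CG13135 was high at 4 h only: it had 0.0857 and 0.0501 scaled TPM in fed larvae, 20.9 and 27.7 after 4 h, and 0 and 0.0664 after 16 h (log2FC of 16 h against 4 h -4.60, SE 0.18, limma adjusted p = 0.0017). Prip, an aquaporin, had 0.481 and 0.583, then 16.7 and 16.3, then 5.21 and 4.81 (log2FC -1.54, SE 0.11, limma adjusted p = 0.023). bdg (bedraggled) had 2.25 and 2.36, then 5.47 and 5.45, then 1.36 and 1.16 (log2FC -1.52, SE 0.11, limma adjusted p = 0.023). Their calls were lost without 4 h replicate 1 (adjusted p 0.051 for CG13135, 0.068 for the others), and those of Prip and bdg also without 4 h replicate 2 (0.059 and 0.060).

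Some genes were ordered by time in every library without passing that test; they were chosen after their values were seen. sug had 2.52 and 1.09 scaled TPM in fed larvae, 6.14 and 6.52 after 4 h and 34.1 and 27.8 after 16 h (log2FC of 16 h against 4 h 2.12, SE 0.26, limma adjusted p = 0.088). REPTOR had 1.61 and 1.003, then 4.36 and 3.80, then 10.002 and 11.2 (log2FC 1.19, SE 0.18, limma adjusted p = 0.11). Idh ran the other way, with 624 and 511, then 116 and 112, then 41.0 and 40.6 (log2FC -1.46, SE 0.20, limma adjusted p = 0.10), as did Men, the malic enzyme, with 148 and 177, then 66.9 and 47.0, then 19.3 and 12.8. TotA, a stress peptide, peaked at 4 h, with 42.6 and 54.2, then 2886 and 2950.2, then 880.2 and 663 (log2FC -1.93, SE 0.23, limma adjusted p = 0.088; 0.048 with no scaling).

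**Figure D5:**
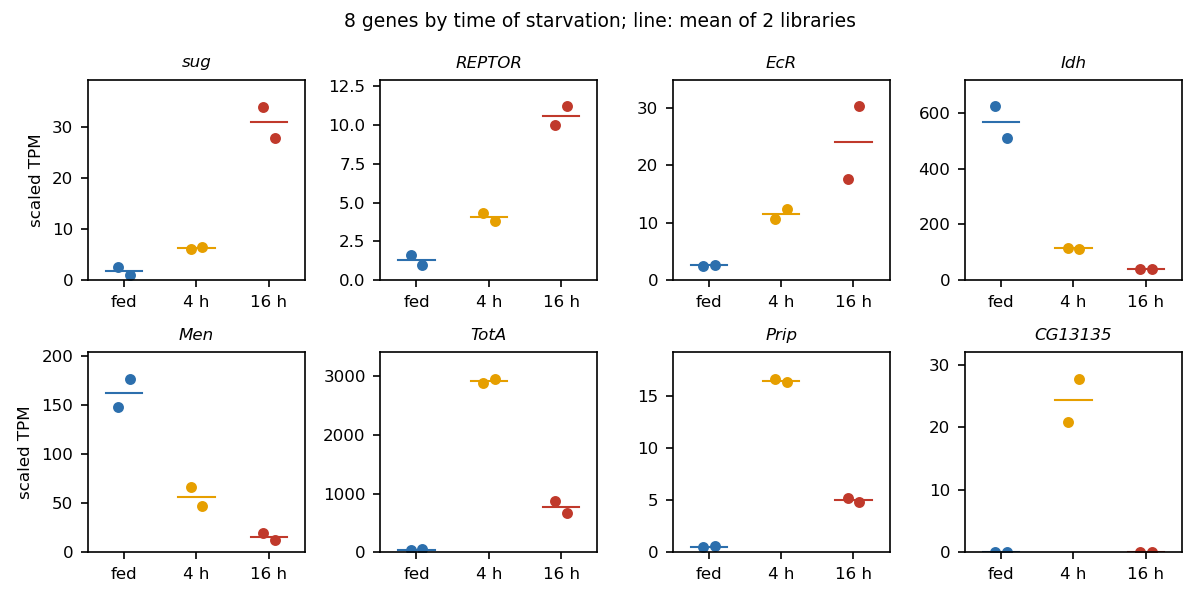
Scaled TPM (y axis) of 8 genes in fed larvae (blue) and after 4 h (orange) and 16 h (red) of starvation, 2 libraries each, with lines at the means. sug, REPTOR and EcR are highest at 16 h, Idh and Men lowest, and TotA, Prip and CG13135 peak at 4 h.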

How the data were processed

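Fat body RNA from 8 libraries had been sequenced and summarised by the authors as TPM per gene and per isoform, and the values were used as deposited; per the submitters' processing notes, reads were aligned to BDGP6 with STAR 2.5.3. The quantification tool is not given in the sources used here. TPM are shares of a library, so a rise of ribosomal RNA lowers all other values; depth is unknown. Values were divided by median-of-ratios factors over 5393 genes with 1 TPM or more in every library. Genes with a mean scaled TPM of 1 or more over all 8 libraries (8332) were tested on log2(scaled TPM + 1) with limma 3.58.1 (R 4.3.3). The fit had 1 mean per group over 8 libraries, a variance trend and Benjamini-Hochberg adjustment. Isoforms were tested with limma on log2 of an isoform's TPM over that of the gene's other isoforms, each plus 1. Symbols came from the BDGP6.54 annotation. Named genes were the 12 largest called rises and 12 largest called falls among nuclear coding genes whose groups did not overlap and that had a mean of 5 or more scaled TPM in the higher group, Cpsf5, Atg1 and Atg8a, and up to 4 of the largest called changes in each list; genes outside this rule that illustrate a list were chosen after their values were seen. Alternatives changed the scaling, pseudocount, filter, variance trend and libraries. The members and lists were chosen with earlier results of these data known. Promoter sequences were not used here.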

Additional observations from a re-analysis of the deposited data

Results flagged for a closer look

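The change relative to fed larvae differed between the times of starvation, by the limma test of 16 h against 4 h, in 3 named genes of 8332 tested. The log2 fold change of 16 h against 4 h was -4.60 for CG13135, -1.54 for Prip and -1.52 for bdg, lower at 16 h in both libraries of each. Their calls depended on single libraries, as given with their values.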

How the results depend on the processing

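Of the alternatives for the genes named between 16 h and fed, 2516 kept direction and side of the threshold, 155 no longer passed, 7 newly passed and 5 reversed, all with no scaling: VhaM9.7-c (log2 fold change -0.58), ap (-0.78), crq (-0.35), hth (-0.40) and svp (-0.20). Genes higher at 16 h than fed numbered 523 with no scaling, 1067 with a mean of 5 or more and 1043 to 1403 when 1 library was left out; genes lower numbered 4027, 1476 and 1640 to 1880. Against 4 h, genes higher numbered 1 with no scaling, 2 with rescaling over coding genes, 4 with quantile normalization, 1 with a pseudocount of 5, 1 with no variance trend and 0 to 15 without 1 library. Genes lower numbered 13, 1, 10, 7 and 5 in those settings, 0 with a pseudocount of 0.1, 1 with no filter, 0 with a mean of 5 or more, 1 in the 6 wild-type libraries and 0 to 9 without 1 library. Isoforms with a higher share numbered 230 with a pseudocount of 0.1, 208 with a gene mean of 20 or more and 274 to 344 without 1 library, and those with a lower share 204, 178 and 192 to 251. A lone sample left in a group was assumed to vary like the other groups. The cause of these moves was not tested. No paired analysis was possible because the labels carry no replicate numbers. TPM give no depth, so low genes carry an unknown counting error.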

Other observations

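Several gene families, chosen after their values were seen, moved together between 16 h and fed. All 8 subunits of the CCT chaperonin, which folds actin and tubulin, fell, with a median log2 fold change of -2.64; CCT5 had 8.66 and 16.3 scaled TPM at 16 h and 77.9 and 98.7 in fed larvae. All 21 tested nucleoporins fell, with a median of -1.28 (7 of 7 tested at a mean of 5 or above). Nup50 had 5.77 and 5.36 against 28.0 and 30.5 scaled TPM. All 7 tested snoRNA host genes of the Uhg family fell, with a median of -2.82, and Uhg2 had 5.97 and 6.50 against 71.2 and 75.6.

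Rab, Vps, Snx and Pgant genes showed rises and no falls. Of 18 Rab GTPases 9 rose and 0 fell (6 rose without fed replicate 1, 5 without fed replicate 2; 1 rose and 3 fell with no scaling). Rab7, which acts at late endosomes and lysosomes, had 72.6 and 77.2 scaled TPM at 16 h and 21.3 and 18.8 in fed larvae. Of 26 Vps genes of endosomal sorting 13 rose, but 2 to 6 did without 1 of the 4 libraries, and with no scaling 0 rose and 4 fell. Of 7 sorting nexins (Snx) 5 rose, 3 or 4 without 1 of the 4 libraries, and with no scaling 2 rose and 1 fell. Of 9 Pgant enzymes, which start O-linked glycosylation, 7 rose and 0 fell (3 rose without fed replicate 1; 2 rose and 1 fell with no scaling). Pgant9 had 8.77 and 17.6 against 0.828 and 0.615 scaled TPM.

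The annotated 3' UTR length weighted by isoform share was a measure added after seeing the data. It was longer at 16 h without overlap of the groups in 339 of 1308 genes (25.9%) and shorter in 273 (20.9%). The median change was 1.59 nt. No test was run on this measure. With 2 libraries a group, some genes separate by the order of their values alone, so these shares are only a description.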
